A study of Mus musculus with 4 samples.

Results

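A set of 10 genes of brain blood vessels was followed in mouse embryos labelled as knockouts of the histone variant macroH2A and in wild-type embryos. They were chosen by name as textbook genes of brain endothelium and of its barrier, and all 10 were found by symbol among the 19150 genes held by both deposited tables: Pecam1, Cdh5, Cldn5, Emcn, Kdr, Flt1, Tek, Tie1, Slc2a1 and Mfsd2a. RNA sequencing was done on brains of C57BL/6 embryos at E13.5, with 2 knockout libraries (KO2 and KO4) and 2 wild-type libraries (WT6 and WT8). The labels do not give the macroH2A gene that was targeted, the kind of allele, or whether the embryos came from separate litters, so that the spread behind each p-value is that of these libraries and may include technical error. The deposited tables set KO2 beside WT6 and KO4 beside WT8.

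Blood vessels enter the neural tube from a surrounding plexus and branch inside it under the control of vascular endothelial growth factor, which is made by neural progenitors and read by receptors on endothelial cells. Angiopoietins acting on the TIE receptors then stabilise the vessels together with pericytes. Under Wnt ligands from the neural tissue, brain endothelial cells acquire a barrier: tight junctions seal the gaps between cells, transcytosis is held low, and nutrients pass through dedicated transporters. At mid-gestation this barrier is still forming.

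The libraries were alike in depth, with 16470090 to 18136745 reads in the tables. The labels were checked on the macroH2A genes: H2afy had 5538 reads in WT6 and 5593 in WT8, and 1368 in KO2 and 1267 in KO4, and H2afy2 had 3303, 2910, 3487 and 3781 in the same order. The log2 fold change of H2afy was -2.22 (edgeR quasi-likelihood adjusted p = 0.00167), and it was the only one of 15708 tested genes that passed at an adjusted p under 0.05. H2afy2 stood at 0.08 (edgeR adjusted p = 0.799). Without WT6 no gene passed, H2afy not passing either, and without WT8 67 passed as higher and 37 as lower, in fits where the remaining WT library is assumed to vary like the KO libraries. Brain tissue was checked on neuronal and radial glial markers. The summed level of 6 neuronal markers lay between 5629 and 6017 CPM and that of 8 radial glial markers between 2032 and 2339 CPM (CPM is the read count relative to the library total, scaled here by TMM factors).

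All 10 endothelial and barrier genes were read in every library and passed the filter on low counts, from 45 reads of Emcn in WT6 to 1769 reads of Slc2a1 in WT8. Per kilobase of exon they fell into a high and a low set. Cldn5, the main claudin of brain endothelial tight junctions, had a mean of 26.8 CPM per kilobase over the 4 libraries, with a range from 24.0 to 30.1. Slc2a1, which encodes the glucose transporter GLUT1, had 26.7 with a range from 23.4 to 31.6, so its order against Cldn5 was not separated. Mfsd2a, a lipid transporter of the barrier that also holds transcytosis low, followed at 16.9, with a range from 15.9 to 18.2 that lay below both. Among 15687 tested genes with an exon length these 3 stood at percentiles of 85.6, 85.6 and 77.9. These are levels in whole brain and not within endothelial cells, and Slc2a1 is also made outside endothelium.

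The genes of endothelial identity and signalling were several times lower per kilobase. The receptor kinase gene Tie1 had a mean of 3.92 CPM per kilobase and Cdh5, the gene of VE-cadherin, 3.78, and their ranges overlapped. Pecam1, which encodes the adhesion molecule CD31, had 3.14, and Kdr, the gene of the main signalling receptor for vascular endothelial growth factor, had 2.22. Tek, which encodes the angiopoietin receptor TIE2, had 1.05, Flt1, the gene of the decoy receptor VEGFR1, 0.803, and Emcn, the gene of the sialomucin endomucin, 0.670. The ranges of Tek and Flt1 overlapped, as did those of Flt1 and Emcn, and these 3 were at percentiles of 21.6, 17.8 and 15.5. Per length of the longest transcript in place of all exons, 3 of 10 genes kept their rank. Pecam1 then stood at 5.68 CPM per kilobase and Flt1 at 1.57, while the same 3 genes led.

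**Figure D1:**
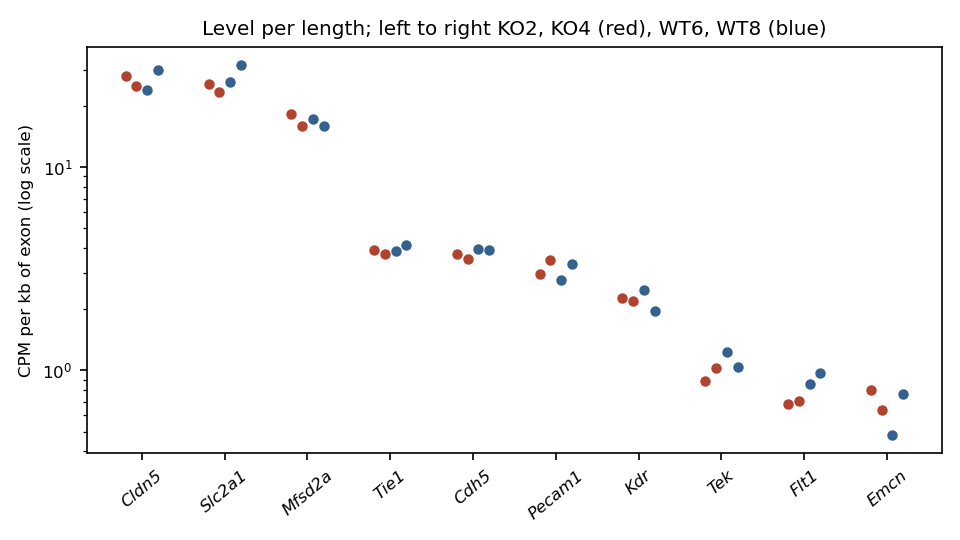
Level of each gene in CPM per kilobase of exon on a log axis, 1 point per library, KO in red and WT in blue. Cldn5, Slc2a1 and Mfsd2a lie between 15.9 and 31.6, and the other 7 genes between 0.483 and 4.14.

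The tables place the genes on 6 chromosomes of GRCm38, and 4 of them lie on chromosome 4. Tie1 (ENSMUSG00000033191, 118471191 to 118490061, minus strand) and Slc2a1 (ENSMUSG00000028645, 119108711 to 119137983, plus strand) begin 0.64 Mb apart there by their lower coordinates, and Mfsd2a (ENSMUSG00000028655, 122946850 to 122961188, minus strand) begins 3.84 Mb beyond Slc2a1. Tek (ENSMUSG00000006386) lies further off on the same chromosome, at 94739289 to 94874976. Kdr (ENSMUSG00000062960, 75932827 to 75978458) and Flt1 (ENSMUSG00000029648, 147561604 to 147726011) share chromosome 5. Pecam1 (ENSMUSG00000020717) is on chromosome 11 at 106654217 to 106750628, Cdh5 (ENSMUSG00000031871) on chromosome 8 at 104101625 to 104144511, Cldn5 (ENSMUSG00000041378) on chromosome 16 at 18776847 to 18778260 and Emcn (ENSMUSG00000054690) on chromosome 3 at 137341067 to 137432185. In the GENCODE M21 annotation, Cldn5 is a single exon, and Slc2a1 is the only one of the 10 whose exons overlap those of another gene, Gm12868 on the opposite strand, over 105 bases. Without knowing that counting used strand, reads in those bases cannot be told apart. In the authors' deposited annotation 5 of the 10 carry the term angiogenesis, as do 1.09% of all genes listed in both tables, and 3 carry vasculogenesis, as do 0.308%, which follows from how the genes were chosen.

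Promoters are shown for the 3 genes on which the comparison of the libraries turns, Flt1, Slc2a1 and Cldn5. They run from 250 bases before to 50 after the transcription start in RefSeq on GRCm38.p6, at chr5:147725962-147726261 on the minus strand, chr4:119108495-119108794 on the plus strand and chr16:18776597-18776896 on the plus strand. Capitals mark AGGAAG and CGGAAG, forms of the element bound by ETS factors, which are known regulators of endothelial genes, and the TATA box letters, TATAAA, each on either strand.
Flt1: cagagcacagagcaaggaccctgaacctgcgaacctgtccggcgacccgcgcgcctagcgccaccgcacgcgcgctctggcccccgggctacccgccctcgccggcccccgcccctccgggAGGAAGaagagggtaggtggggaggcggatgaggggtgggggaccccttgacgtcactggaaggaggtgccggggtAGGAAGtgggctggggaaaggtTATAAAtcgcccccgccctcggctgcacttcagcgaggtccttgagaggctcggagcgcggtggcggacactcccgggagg
Slc2a1: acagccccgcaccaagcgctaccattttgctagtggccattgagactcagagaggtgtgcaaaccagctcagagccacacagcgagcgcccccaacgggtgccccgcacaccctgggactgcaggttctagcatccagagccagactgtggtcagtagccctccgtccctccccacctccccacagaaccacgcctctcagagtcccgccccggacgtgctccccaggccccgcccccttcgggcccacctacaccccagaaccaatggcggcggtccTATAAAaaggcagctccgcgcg
Cldn5: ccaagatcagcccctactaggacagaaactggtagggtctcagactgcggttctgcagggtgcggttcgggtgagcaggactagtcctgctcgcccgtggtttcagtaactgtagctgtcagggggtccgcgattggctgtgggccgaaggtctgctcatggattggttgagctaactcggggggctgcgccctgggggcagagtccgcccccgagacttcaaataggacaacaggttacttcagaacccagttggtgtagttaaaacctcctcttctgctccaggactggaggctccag
A RefSeq promoter was matched for 8 of the 10 genes, Pecam1 and Cdh5 being the others. AGGAAG was found in 3 of the 8, with 2 occurrences each in Emcn, Flt1 and Tie1, where 35.4% of all 32851 promoters of this length hold it. CGGAAG was found in Tie1 alone, where 16.9% of all promoters hold it, and no occurrence of either form overlapped the other. The Tie1 window is set on a start 212 bases from that in GENCODE, beside at most 34 bases for the others. Much of it therefore lies within the gene as annotated there. The TATA box letters were found in Flt1 and Slc2a1, where 13.6% of all promoters hold it. The windows ranged in GC content from 41.0% in Emcn, with 2 CpG sites, to 70.7% in Flt1, with 29, beside medians of 52.7% and 7 over all promoters. Slc2a1 had 18 CpG sites, Mfsd2a 22, Kdr 19 and Cldn5 12, and Tek had 3. A match of letters is a description and shows no binding.

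None of the 10 genes passed the test between KO and WT brains (0 of 10 at an edgeR adjusted p under 0.05, beside 0.00637% of all 15708 genes). Their log2 fold changes lay between -0.39 for Flt1 and 0.20 for Emcn, 6 below and 4 above 0, with a median of -0.05 beside -0.01 for all genes tested, of which 51.1% lay below 0. At an unadjusted p under 0.05 edgeR gave 1 of the 10, beside 4.69% of all genes. Reads in whole brain cannot tell fewer endothelial cells from less RNA per endothelial cell. The summed level of the 8 genes other than the transporters was 129 CPM in WT6 and 139.9 in WT8, and 131 in KO2 and 128 in KO4, so that WT8 stood above the other 3.

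**Figure D2:**
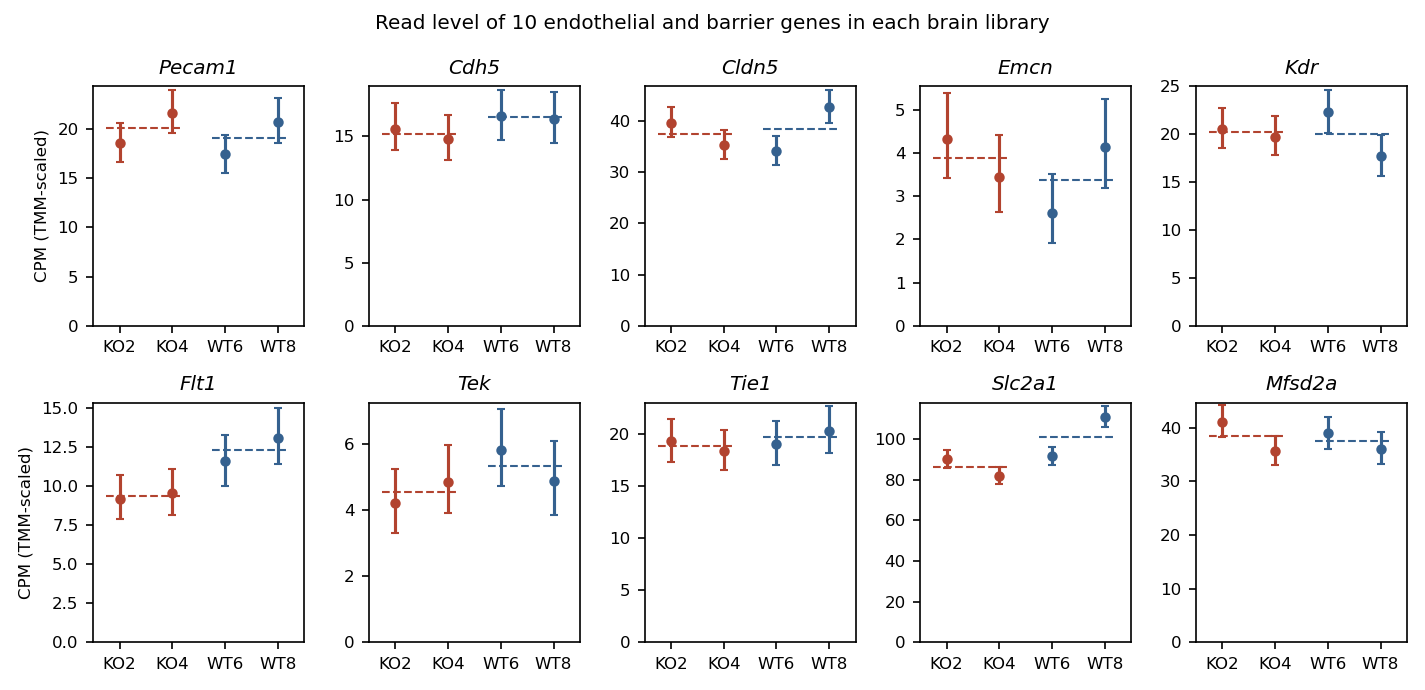
TMM-scaled CPM of each gene in the 4 libraries, KO in red and WT in blue, with 95% Poisson counting intervals as bars and the mean of each genotype as a dashed line. Flt1 lies at 9.21 and 9.54 CPM in KO and 11.6 and 13.1 CPM in WT, and for Cldn5 and Kdr the WT libraries lie on both sides of the KO libraries.

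The receptors for vascular endothelial growth factor are encoded by Flt1 and Kdr, and neither gene passed. FLT1 binds the factor strongly and signals weakly, and so limits what reaches KDR. Flt1 had 199 reads in WT6 and 209 in WT8, and 169 in KO2 and 175 in KO4, which is 11.6, 13.1, 9.21 and 9.54 CPM. Both KO libraries lay below both WT libraries, with means of 9.38 ± 0.233 and 12.3 ± 1.07 CPM (SD, n = 2 each). The level in KO was 0.762 times that in WT, with a 95% interval from 0.591 to 0.983, and the log2 fold change was -0.39 (SE 0.15, edgeR unadjusted p = 0.0396, adjusted p = 0.743). It therefore did not pass over all genes. Leaving out single libraries gave log2 fold changes between -0.48 without WT6 and -0.30 without WT8.

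Kdr, the receptor through which endothelial cells are driven to divide and sprout, had 384 reads in WT6 and 283 in WT8, and 378 in KO2 and 362 in KO4. These are 22.3, 17.7, 20.6 and 19.7 CPM, so that the highest and the lowest library were both WT. The log2 fold change was 0.01 (edgeR adjusted p = 0.986; 95% interval -0.35 to 0.37), and it was -0.14 without WT8 and 0.19 without WT6. WT8 held 0.794 times the level of WT6, with a counting interval from 0.678 to 0.928. The ratio of Flt1 to Kdr CPM was 0.518 in WT6 and 0.739 in WT8, and 0.447 in KO2 and 0.483 in KO4. WT8 stood highest in this ratio, and 2 libraries against 2 cannot give an exact permutation p below 0.333.

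The TIE receptors, which bind angiopoietins (TEK) or modify that signal (TIE1), did not pass either. Tek had 100 reads in WT6 and 78 in WT8, and 77 in KO2 and 89 in KO4, or 5.81, 4.88, 4.20 and 4.85 CPM. The KO libraries lay below the WT libraries, KO4 and WT8 being nearly level, and the log2 fold change was -0.24 (edgeR adjusted p = 0.775; 95% interval -0.75 to 0.27). Tie1 had 327 reads in WT6 and 325 in WT8, and 354 in KO2 and 337 in KO4, or 19.0, 20.3, 19.3 and 18.4 CPM. Its libraries overlapped, and its log2 fold change of -0.06 had an interval from -0.36 to 0.24 (edgeR adjusted p = 0.903). On the linear scale the interval ran from 0.777 to 1.18 times the WT level.

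Adhesion and junction genes likewise did not pass. Cdh5, whose product holds endothelial cells together at adherens junctions, had the smallest gap between the WT brains of the 10, with 286 reads in WT6 and 262 in WT8, and 287 in KO2 and 272 in KO4, or 16.6, 16.4, 15.6 and 14.8 CPM. Both KO libraries lay below both WT libraries, with a log2 fold change of -0.11 and an interval from -0.43 to 0.20 (edgeR adjusted p = 0.812). Pecam1 had 299 reads in WT6 and 331 in WT8, and 339 in KO2 and 397 in KO4, or 17.4, 20.7, 18.5 and 21.6 CPM. Its libraries overlapped, with a log2 fold change of 0.08 and an interval from -0.29 to 0.44 (edgeR adjusted p = 0.899). It stood at -0.05 without WT6 and at -0.04 without KO4. PECAM1 is also made by platelets and some leukocytes.

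Cldn5 had 586 reads in WT6 and 682 in WT8, and 726 in KO2 and 647 in KO4, or 34.0, 42.7, 39.6 and 35.3 CPM. The WT libraries enclosed the KO libraries. The log2 fold change was -0.03 with an interval from -0.36 to 0.29 (edgeR adjusted p = 0.951), and its sign turned with scaling by library totals (0.005), without KO4 (0.04) and without WT8 (0.14). Emcn, a surface mucin mainly of veins and capillaries, had 45 reads in WT6 and 66 in WT8, and 79 in KO2 and 63 in KO4, or 2.61, 4.13, 4.31 and 3.44 CPM. WT6 was the lowest and KO2 the highest, with KO4 and WT8 between them, so the genotypes overlapped. With the fewest reads of the 10 it had the widest interval, from -0.50 to 0.91 around a log2 fold change of 0.20 (edgeR adjusted p = 0.857), which was -0.09 without WT6, 0.04 without KO2, 0.35 without KO4 and 0.57 without WT8.

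Among the transporters, Slc2a1 carries glucose across the barrier and is also made outside endothelium. It was the most read of the set, with 1577 reads in WT6 and 1769 in WT8, and 1650 in KO2 and 1503 in KO4, or 91.6, 111, 90.0 and 82.0 CPM. KO2 and WT6 were nearly level and WT8 stood above the rest. The log2 fold change was -0.23 with an interval from -0.50 to 0.03 (SE 0.11, edgeR adjusted p = 0.743), and it was -0.09 without WT8 and -0.37 without WT6. Mfsd2a, which carries lysophospholipids with omega-3 fatty acids into the brain, had 670 reads in WT6 and 576 in WT8, and 753 in KO2 and 654 in KO4, or 38.9, 36.0, 41.1 and 35.7 CPM. Its libraries overlapped, with a log2 fold change of 0.03 and an interval from -0.23 to 0.30 (edgeR adjusted p = 0.942), and it stood at -0.06 without KO2 and -0.02 without WT8.

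**Figure D3:**
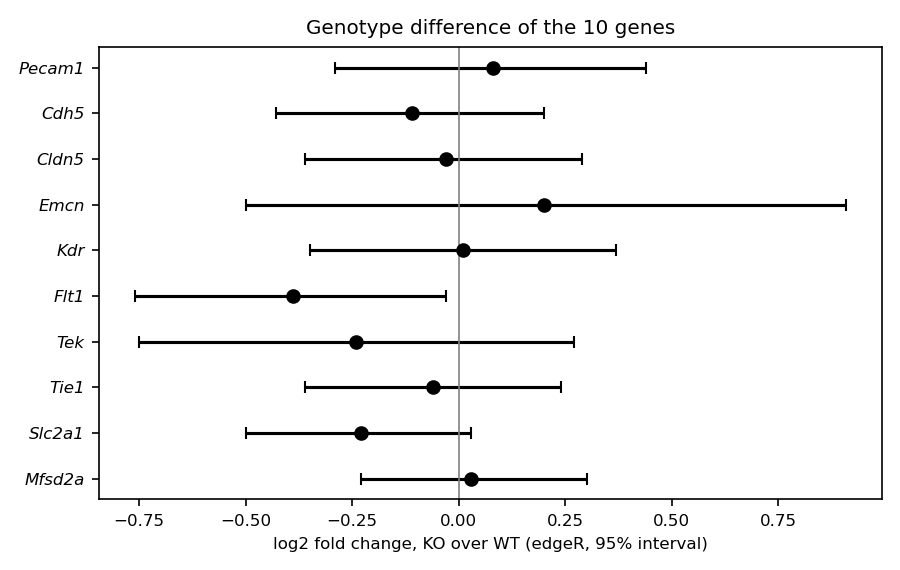
Log2 fold change of each gene, KO over WT, as points with 95% intervals from the edgeR fit on 2 libraries a genotype. The interval of Flt1 runs from -0.76 to -0.03 and those of the other 9 genes include 0.

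The genotypes did not overlap for 4 of the 10 genes (Cdh5, Flt1, Tek and Slc2a1), KO being lower in all 4, beside 39.5% of all genes in either direction and 19.4% with KO lower. For 8 of the 10, all but Cdh5 and Flt1, the gap between the WT brains on the log2 scale was larger than the difference between the genotype means, beside 63.2% of all genes. WT8 was the highest library for 4 of the 10 (Cldn5, Flt1, Tie1 and Slc2a1) and the lowest for Kdr, and KO4 was the lowest for 4 (Cdh5, Tie1, Slc2a1 and Mfsd2a). As a part of the summed CPM of the 10 genes, Slc2a1 made up 35.3% in WT6 and 38.6% in WT8, and 34.3% in KO2 and 33.4% in KO4. In the same order Mfsd2a made up 15.0%, 12.6%, 15.6% and 14.5%, and Cldn5 13.1%, 14.9%, 15.1% and 14.4%. The ratio of Slc2a1 to Pecam1 CPM was 5.27 in WT6 and 5.34 in WT8, and 4.87 in KO2 and 3.79 in KO4, KO4 standing apart from the other 3.

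Within the deposited pairs, with 1 library a genotype and no replicate, 5 of the 10 genes lay on opposite sides of 1. Cldn5 in KO2 was 1.16 times its level in WT6, with a counting interval from 1.04 to 1.30, and in KO4 it was 0.827 times its level in WT8, with an interval from 0.741 to 0.922. Emcn stood at 1.65 (1.13 to 2.43) in the first pair and 0.832 (0.580 to 1.19) in the second. Slc2a1 stood at 0.982 (0.916 to 1.05) and at 0.741 (0.691 to 0.794). Flt1 was lower in the KO library of both pairs, at 0.797 (0.645 to 0.984) and 0.730 (0.594 to 0.896). These intervals cover counting error between 2 libraries and say nothing of the spread between embryos.

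The counting interval left out 1 for 4 of the 10 genes in KO2 over WT6, beside 30.4% of all genes tested, and for 3 in KO4 over WT8, beside 48.1%. Between libraries of 1 genotype, the interval of WT8 over WT6 left out 1 for 5 of the 10 genes, beside 40.7% of all genes, among them Cldn5 at 1.25 (1.12 to 1.40) and Slc2a1 at 1.21 (1.13 to 1.29). That of KO4 over KO2 left out 1 for 4, beside 26.8% of all genes, with Mfsd2a at 0.869 (0.781 to 0.966) and Pecam1 at 1.17 (1.01 to 1.36). In the authors' deposited table for KO2 over WT6, Cldn5 had an adjusted p of 0.0232 and Emcn one of 0.0288, 2 of the 10 and both on the higher side, where 17.3% of all listed genes had one under 0.05 and 8.58% on that side. In the authors' deposited table for KO4 over WT8, Slc2a1 had an adjusted p of 2.73e-12, Cldn5 0.0149 and Flt1 0.0153, 3 of the 10 and all on the lower side, where 39.0% of all listed genes had one under 0.05 and 15.2% on that side. The authors' deposited table marks none of the 10 as significant in either pair.

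**Figure D4:**
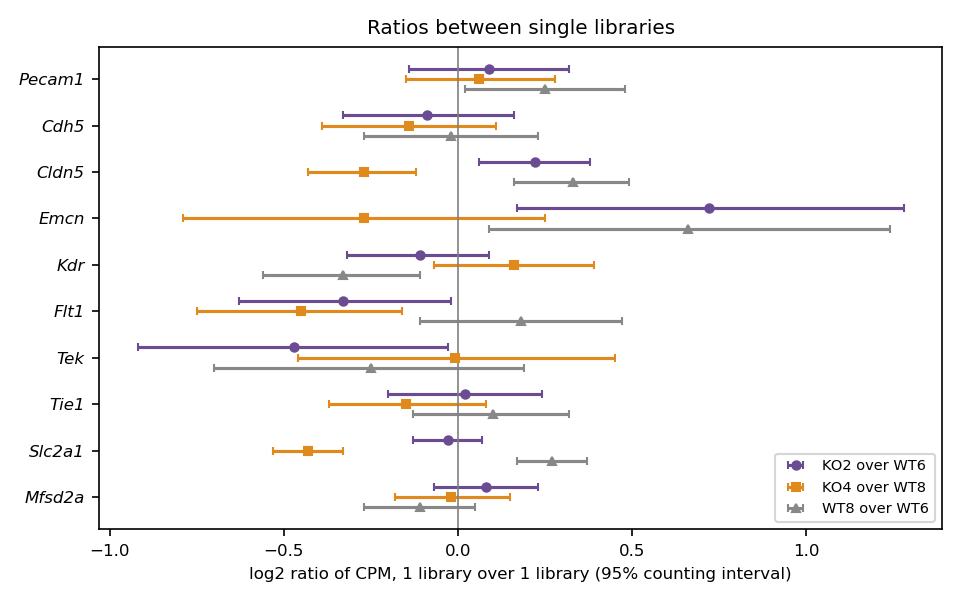
Log2 ratio of CPM between single libraries for each gene, with 95% counting intervals, for KO2 over WT6, KO4 over WT8 and, as a measure of spread within a genotype, WT8 over WT6. Cldn5 lies at 0.22 and -0.27 in the KO over WT pairs and at 0.33 between the WT libraries.

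The wider set of genes of vessels and their surroundings, several of them also active in neural cells, gave no call either. Across 7 lists of genes around brain endothelium, 116 genes were tested, of which edgeR called 0. Of these, 2 had an unadjusted edgeR p under 0.05 (Wnt7b and Slc40a1), beside 4.69% of all genes. Of the 116, 50 lay above and 66 below 0, beside 51.1% of all genes below 0. Their median log2 fold change was -0.05, beside -0.01 for all genes. DESeq2 and limma-voom also called none of them.

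Among 35 tested genes of endothelial identity, 24 lay below 0 and 11 above, with a median of -0.11, and 9 were lower and 2 higher in KO without overlap, beside 19.4% and 20.1% of all genes. The 3 with the highest level were Plxnd1, a semaphorin receptor gene of vessels and neurons, at -0.16, Podxl, a podocalyxin gene also active in neurons, at -0.07, and Eng, the endoglin gene, at -0.32. Icam2, an endothelial adhesion gene, had 71 and 86 reads in the WT brains and 60 and 59 in the KO brains, a log2 difference of -0.55 (SE 0.24, edgeR adjusted p = 0.743). Egfl7, a secreted endothelial factor gene, had 276 and 332 reads in the WT brains and 288 and 248 in the KO brains, with -0.33. Both had their highest level in WT8.

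Ligands and co-receptors of the growth factor and angiopoietin pathways, 11 of 12 listed genes being tested, had 5 above and 6 below 0. Vegfa, the ligand of KDR and FLT1, stood at 0.05, with 69.3 CPM in WT6 and 64.6 in WT8, and 64.1 in KO2 and 74.9 in KO4. Vegfb, a ligand of FLT1, stood at -0.15 and the co-receptor gene Nrp2 at 0.06. Nrp1, a co-receptor gene also active in growing axons, was higher in both KO libraries than in both WT libraries, at 28.2 and 22.9 CPM beside 22.5 and 19.0 CPM, with a log2 fold change of 0.30 (edgeR adjusted p = 0.743). Of the 11 genes 3 were higher and 0 lower in KO without overlap, beside 20.1% and 19.4% of all genes. Vegfd had 9 to 27 reads a library and stood at -0.89 (SE 0.52).

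Of 16 genes of the Wnt and norrin pathway that induces the barrier, 10 lay above and 6 below 0, with a median of 0.04. Wnt7b, a neural ligand for brain endothelium, had 336 CPM in WT6 and 287 in WT8, and 254 in KO2 and 260.2 in KO4. KO was lower without overlap for Wnt7b, with a log2 fold change of -0.28 (SE 0.10, edgeR unadjusted p = 0.0317, adjusted p = 0.743). Of the 16 genes 5 were lower and 5 higher in KO without overlap, beside 19.4% and 20.1% of all genes. Without WT8 the log2 fold change of Wnt7b was -0.38, in a fit with WT6 as the single WT library. Ctnnb1, the beta-catenin gene, stood at 0.39, its WT8 level of 295 CPM lying apart from 443 to 499 CPM in the other 3, and Apcdd1, a Wnt target gene of barrier vessels, at -0.04.

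Junction genes, 18 tested, had 10 above and 8 below 0 and a median of 0.02. Cdh2, the N-cadherin gene of neural cells and pericyte contacts, stood at 0.21, Ctnna1, which links cadherins to actin, at 0.04, Jup, the plakoglobin gene, at -0.22, and Tjp1, the gene of the tight junction scaffold ZO-1, at 0.19. Transporters and receptors, 17 tested, had 10 above and 7 below 0 and a median of 0.08. Of these 17, 4 were lower and 4 higher in KO without overlap, beside 19.4% and 20.1% of all genes. Slc7a5 and Slc3a2, which encode the chains of a large neutral amino acid carrier, stood at -0.19 and -0.16, each among the 4 lower. The lipoprotein receptor gene Lrp1 stood at -0.11. Slc40a1, the iron exporter gene, had 79 and 53 reads in the WT brains and 117 and 126 in the KO brains, a log2 difference of 0.74 (SE 0.23, edgeR unadjusted p = 0.0153, adjusted p = 0.743). Macrophages also make this exporter.

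The 6 genes of caveolae and fenestrae, structures that barrier vessels keep scarce, had 2 above and 4 below 0. Plvap, a gene of fenestrated and immature vessels, had 8.25 CPM in WT6 and 13.3 in WT8, and 6.65 in KO2 and 7.58 in KO4, so that WT8 stood apart, a log2 difference of -0.59 (SE 0.25, edgeR adjusted p = 0.743). The caveolin gene Cav2 stood at 0.61 on 28 to 66 reads, Cav1 at 0.08 with 6.22 CPM in KO4 and 16.7 in KO2, Cavin1 at -0.05 and Ehd2 at -0.03. Of 13 tested pericyte and mural genes 11 lay below 0, beside 51.1% of all genes, with a median of -0.15. Notch3, a receptor gene of mural cells that neural progenitors also make, stood at -0.15, Rgs5 at -0.04, Pdgfrb, the receptor gene by which pericytes are recruited, at -0.11, and Higd1b at -0.56 on 16 to 25 reads. The list's summed level was 168 CPM in WT6 and 190.0 in WT8, and 172 in KO2 and 161 in KO4.

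**Figure D5:**
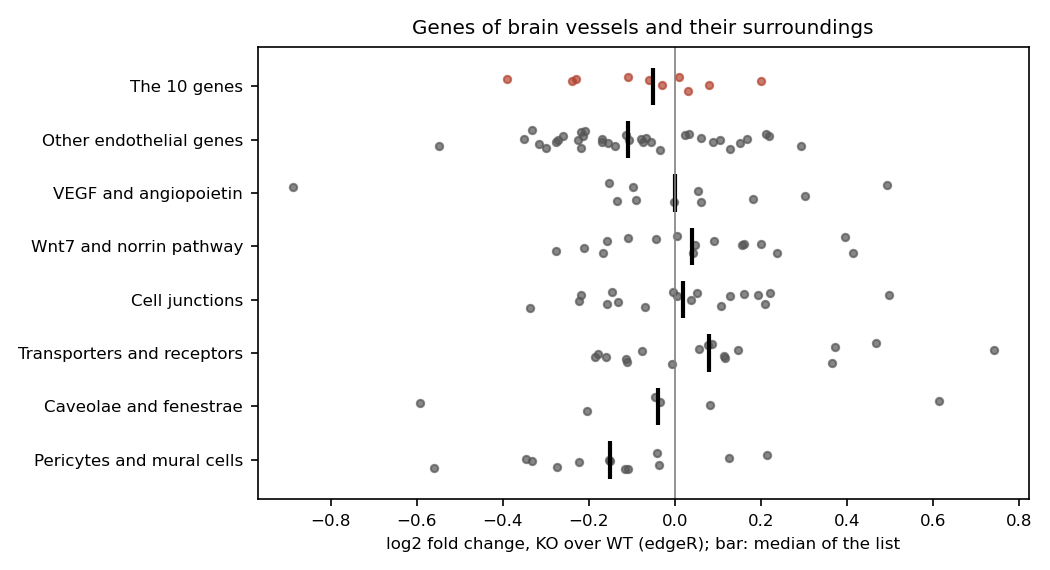
Log2 fold change, KO over WT, of the 10 genes (red) and of the tested genes of 7 lists (grey), with the median of each as a bar. The medians lie between -0.15 for pericyte and mural genes and 0.08 for transporters and receptors.

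Transcripts of other cell types that vessels carry or touch had their highest summed level in WT8 in 6 of 7 lists, all but the platelet genes. Neural markers are included in these lists. The 10 genes' own sum was 259.8 CPM in WT6 and 287 in WT8, and 262 in KO2 and 245 in KO4. Single neuronal genes did not move together, and the neuronal sum was led by Tubb3. Tubb3 was highest in WT8, at 3439 CPM beside 2787 to 3006 CPM in the other libraries. Dcx was lowest in WT8, at 650.0 CPM beside 735 to 773 CPM. Erythroid genes summed to 787 CPM in WT6 and 1483 in WT8, and 1005 in KO2 and 909.8 in KO4, led by the globin genes Hba-a1 at a log2 fold change of -0.22, Hbb-bs at -0.10 and Hbb-y at -0.47. The alpha-globin genes have near-identical copies, so the value of Hba-a1 is uncertain. Meningeal genes summed to 20.5, 38.0, 25.8 and 26.7 CPM in the same order, led by Crabp2 at -0.20, Col3a1 at -0.37 and Foxc1 at 0.22. Microglia and macrophage genes summed to 68.4, 80.5, 69.3 and 64.2 CPM, the most abundant being Cd68 at -0.10, Laptm5 at 0.05 and Csf1r at -0.11, and no member was at 0 in any library. Of 13 tested microglia and macrophage genes 9 lay below 0, with a median of -0.11, and 5 were lower in KO without overlap (Mrc1, Aif1, C1qa, C1qb and C1qc, named after their values were seen), beside 19.4% of all genes. Mrc1, a receptor gene of macrophages at brain borders, had 21 and 10 reads in the WT brains and 5 and 7 in the KO brains and stood at -1.48 (SE 0.56, edgeR unadjusted p = 0.0341, adjusted p = 0.743), the only one of the list with an unadjusted p under 0.05. Aif1 stood at -0.87 on 9 to 22 reads and the complement gene C1qa at -0.52. Of the erythroid genes 9 of 11 tested lay below 0 and of the meningeal genes 5 of 6, beside 51.1% of all genes. In each of these lists 0 genes were lower and 1 was higher in KO without overlap, beside 19.4% and 20.1% of all genes. Platelet genes, 3 of 8 tested, summed to 26.2, 26.3, 30.3 and 24.7 CPM, mostly from Gp1bb at 0.17, with Itga2b at -0.36 and Gp1ba at -0.13. Gp1bb had a mean of 21.3 CPM, beside 3.88 for Itga2b and 0.939 for Gp1ba, so this sum is largely that of 1 gene. Choroid plexus genes summed to 5.17, 10.6, 9.38 and 4.14 CPM, and 1 of the 5 listed in both tables was at 0 in some library. Ttr had 53 reads in WT6 and 4 in WT8, and 6 in KO2 and 11 in KO4. Otx2 went the other way between the WT brains, with 27 reads in WT6 and 145 in WT8, and 154 in KO2 and 55 in KO4. None of these genes passed in edgeR over all genes. WT8 was also the highest for Slc2a1, Cldn5 and Flt1, and the part of blood, macrophages and meninges in these values was not tested.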

How the data were processed

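RNA was extracted with Trizol from embryonic mouse brains, per the labels' protocols. TopHat2 2.0.12, HTSeq 0.6.0, Bowtie2 2.2.3 and the build mm9 are listed, per the submitters' processing notes, with no roles. Positions in the tables were identical to GENCODE M21 on GRCm38 for 91.2% of genes, so that build is used here. Nothing used here states whether counting kept strand. The deposited tables hold whole-number read counts per gene, not normalized, per the file headers and values. The deposited CPM is the count over a library total, with a count of 0 set to 0.5 read. The deposited ratio (fold change), its log2 and the p-values compare 1 KO with 1 WT library, by a test that none of the sources used here names.

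Counts of the 19150 genes in both tables (20253 and 20424 listed) were fitted in R 4.3.3 with edgeR 4.0.16 (quasi-likelihood F-test, TMM factors 0.971 to 1.01, filterByExpr, genotype as the only term, Benjamini-Hochberg adjustment over 15708 genes, threshold 0.05). The SE is the log2 fold change over the root of F. Counting intervals (95%, exact Clopper-Pearson for ratios and Poisson for levels) hold counting error alone. Genes and lists were chosen with earlier results of these data known. Named are the 10 genes, and the 3 most abundant and the 2 with the smallest p of each vessel list. Of each other cell type the 3 most abundant are named. Neural markers are given as sums instead, with Tubb3 and Dcx named beside them. On simulated counts over these 15708 genes the fit recovered 37.7% of genes changed 1.5-fold, 72.7% changed 2-fold and 92.8% changed 4-fold, with 2.87% of calls false. The simulation gave every gene the spread typical of its level, with no scatter of genes about it and no shift of a whole library. It also changed a set of genes together in each round, and under this adjustment the share recovered depends on how many genes change. The share recovered may therefore be lower in the real libraries. Alternatives were other scalings, no filter, DESeq2 1.42.0, limma-voom and limma 3.58.1 on log2(deposited CPM + 0.5), the deposited pair as a block, and each library left out.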

Additional observations from a re-analysis of the deposited data

How the results depend on the processing

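None of the 10 genes passed the threshold under any of the 12 alternatives (120 values, smallest adjusted p 0.314), and 109 of these values kept their direction. Cldn5 turned sign with library totals (0.005) and with limma on the deposited CPM (0.01). Leaving out single libraries gave log2 fold changes from -0.05 to 0.21 for Pecam1, -0.19 to 0.14 for Cldn5, -0.09 to 0.57 for Emcn, -0.14 to 0.19 for Kdr and -0.06 to 0.13 for Mfsd2a. Cdh5, Flt1, Tek, Tie1 and Slc2a1 stayed below 0 throughout. Over all genes, 2 were called higher with DESeq2, and 2 lower with library totals, DESeq2, limma on the deposited CPM and the deposited pair as a block. Leaving out single libraries gave 0 to 67 higher and 0 to 37 lower, and among the vessel lists 0 to 1 lower (Wnt7b, without WT8). The cause was not tested. With the longest transcript as length 3 of 10 genes kept their rank. Low reads limit Emcn and Tek.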
